A study of Mus musculus with 140 samples.

Results

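Liver fatty acid oxidation, ketone body metabolism and the known targets of the nuclear receptor PPARalpha were followed over 48 h in clock-deficient and wild-type mice. The set was a list of 33 gene symbols chosen by function and looked up in the count tables of WT, Per1,2-/- (PerDKO) and Bmal1-/- (BMALKO) livers. At least 1 of the 3 tables held 13236 symbols, and all 3 held 10489. All 3 tables held 32 of the 33 genes. The remaining gene, Hadha (alpha subunit of the mitochondrial trifunctional protein), was read only in Bmal1-/-, where its 46 libraries lay at 234, 300 and 409 CPM (lowest, median, highest), and it was not analysed here in the other genotypes. Levels are given in CPM, molecule counts scaled to the library total and to edgeR's trimmed mean of M values.

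The mice were 3-month-old males, labelled C57BL/6 in all 3 genotypes. WT mice carried an intact clock, Per1,2-/- mice lack both Period genes Per1 and Per2, and Bmal1-/- mice carry a germline knockout of Bmal1 (Arntl) in the whole body, so that neither loss was limited to the liver. All 3 genotypes were kept in a 12 h/12 h light-dark cycle and then in constant dark with food ad libitum, without any drug or other treatment, and livers were taken every 4 h from circadian time (CT) 0, when the first subjective day began, until CT44. Food intake was thus free to follow the clock in WT. For Bmal1-/-, 1 label speaks of light-dark housing during the experiment as well and another of constant dark. MARS-seq, a 3'-end RNA-seq with molecular barcodes, gave 48 WT, 46 Per1,2-/- and 46 Bmal1-/- libraries, with 4 a time point except for CT8 and CT20 in Per1,2-/- and CT16 and CT20 in Bmal1-/-, which had 3 each. Libraries of a time point are lettered A to D. The labels do not say whether the letters are separate animals, and the p-values therefore measure the spread between these libraries.

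As background, PPARalpha is a receptor that long-chain fatty acids and their derivatives activate. Paired with RXR it binds direct repeats with a 1-base spacer and drives genes for the uptake, activation, transport and oxidation of fatty acids and for the making of ketone bodies, above all in fasting liver. Fatty acids are bound to coenzyme A by acyl-CoA synthetases, carried into mitochondria by the carnitine shuttle, and shortened by a cycle of acyl-CoA dehydrogenase, hydratase, hydroxyacyl-CoA dehydrogenase and thiolase reactions. Electrons leave the first step through the electron transfer flavoprotein and its dehydrogenase, and in liver much of the acetyl-CoA becomes ketone bodies. CREB3L3 (CREBH) is a liver transcription factor of fasting that acts with PPARalpha.

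Promoters of the genes were searched for the direct repeat that PPARalpha and RXR bind, because it is the element that names the set. RefSeq promoter windows (GRCm38) were matched for 27 of the 33 genes, and 2 copies of the half-site AGGNCA with 1 base of any kind between them were searched on both strands in the 250 bases before the start. The repeat was found before Fabp1, which encodes the liver fatty acid binding protein, and in none of the other 26 windows. It was found in 0.4% of all 27025 genes with a window. It lies at chr6:71199804-71199832, on the minus strand before a gene of the plus strand, 67 to 55 bases before the start, and is printed with 8 bases on each side and the repeat in capitals.
Fabp1 site: tcagatatAGGCCATAGGTCAgtgattgt
The E-box CACGTG, the core of the site that CLOCK and BMAL1 bind, was found in the same windows of 0 of the 27 genes and of 6.86% of all genes. No window of the set held both motifs. A match is a description of the letters, and repeats outside these windows were not searched.

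Libraries held 1442278 to 5643470 molecule counts, and 9920 of the 10489 shared genes, among them all 32 genes of the set read in the 3 genotypes, passed the filter on low counts. The 7 hepatocyte markers summed to medians of 76000 CPM in WT, 88000 in Per1,2-/- and 53000 in Bmal1-/- (42100 to 101000 over all libraries), and the 8 macrophage markers to 531, 565 and 183 CPM, so both sums moved with genotype, and their part in the levels was not tested. Some libraries stood apart. WT CT36 B and Bmal1-/- CT24 A held the adipocyte transcripts Adipoq (33 and 90 counts) and Retn (10 and 80), and Bmal1-/- CT4 D held pancreatic enzymes such as Ctrb1 (137 counts) and Pnlip (87). Over all genes, Per1,2-/- CT4 C, CT8 C and CT32 A lay farthest from the other libraries of their time points (root mean square log2 distance 0.66 each, median of Per1,2-/- 0.38). CT4 C had the highest stellate marker sum of its genotype (375 CPM, next 318) and CT32 A the highest macrophage sum (1830 CPM, median 565). For the 32 genes, calls lost without these libraries are given beside the results they touch, and the pathway lists were not tested without them. In the Bmal1-/- table, 143 symbols with a median of at least 100 counts had no row in the WT table. The WT table held 119 such symbols without a row in Bmal1-/-. Between Per1,2-/- and WT the same counts were 1 and 0, so this mismatch with WT lay with the Bmal1-/- table. Its reason and its part in the levels of Bmal1-/- were not tested. In levels compared between genotypes, which were deposited in separate tables, genotype and any difference in how the tables were made cannot be told apart. In bulk liver, fewer cells of a type and less RNA per cell cannot be told apart either. The clock output Dbp had a median of 56.4 CPM in WT, 157 in Per1,2-/- and 13.6 in Bmal1-/-, and Nr1d1, a direct BMAL1 target, 49.2, 27.2 and 1.72. Reads at the 3' end need not cover the deleted part of a gene, so Per1, Per2 and Arntl counts check no label.

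In WT liver, 19 of the 32 genes cycled with a 24-h period (JTK_CYCLE, q under 0.2 over all genes), and 48.6% of all 9258 genes tested did. In this test the share is near that of all genes, whereas the peaks were unevenly placed. Of the 19, 8 peaked between CT8 and CT12 (42.1%) and 6 between CT12 and CT16 (31.6%). Of all cycling genes, 20.3% and 16.2% did. The late subjective day and early subjective night thus held 14 of the 19 peaks. The median peak-to-trough fold of the 19 was 1.66, beside 1.39 over all cycling genes. No test was run on these shares and medians. WT CT36 B, the library with adipocyte transcripts, was the highest of its time point for Cpt1a, Pnpla2, Ppara and Cyp4a10. Without the libraries with adipose or pancreas markers 19 genes were called again, with Etfdh in place of Cpt2.

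The regulators peaked together. Ppara lies at chr15:85734910-85806851 (GRCm38, as the other coordinates here). Ppara lay at 66.9, 86.5, 111 and 80.5 CPM at CT28 and at 164, 184, 146 and 133 CPM at CT36 (libraries A to D). Its fitted fold was 1.66 with a peak at 11.7 h (JTK_CYCLE q = 9.74e-06). Creb3l3 lay at 321, 419, 496 and 370 CPM at CT28 and at 615, 595, 655 and 721 CPM at CT36. Its fold was 1.37 with a peak at 11.6 h (q = 0.000552). Here and in the other genes, the time points with the lowest and the highest mean are given, and since they were picked for that, libraries that do not overlap between them are no test.

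Of the 3 genes for the activation of fatty acids and their entry into mitochondria, Cpt1a had the largest fold. Cpt1a encodes carnitine palmitoyltransferase 1A, the outer-membrane enzyme that sets the rate of entry (chr19:3322326-3385735). It lay at 132, 142, 115 and 102 CPM at CT0 and at 349, 521, 417 and 366 CPM at CT36, with a fold of 2.65 and a peak at 11.7 h (q = 6.17e-09). Cpt2, the inner-membrane enzyme of the shuttle, was called with a fold of 1.2 (q = 0.159) and lost the call (q = 0.237) without the libraries with adipose or pancreas markers. Acsl1, an acyl-CoA synthetase, was not called by JTK_CYCLE (q = 0.582). Harmonic regression, the fit of a 24-h cosine, called it at a q under 0.2 (q = 0.171).

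The lipase transcript Pnpla2 had the smallest q of the 32 genes in WT. Pnpla2 encodes adipose triglyceride lipase, the enzyme of the first step of triglyceride breakdown (chr7:141455188-141460743). It lay at 59.3, 58.8, 59.3 and 53.7 CPM at CT20 and at 162, 200, 148 and 133 CPM at CT36, with a fold of 2.41 and a peak at 10.5 h (q = 2.44e-10). Droplet coat proteins peaked at other hours. Plin5, a coat protein that tethers droplets to mitochondria, lay at 39.9, 35.7, 45.1 and 38.5 CPM at CT12 and at 70.8, 67.2, 73.9 and 84.8 CPM at CT40, with a fold of 1.8 and a peak at 18.7 h (q = 0.000129). Plin2, the main droplet coat protein of hepatocytes, had a fold of 1.67 and a peak at 4.69 h (q = 0.000231). The 3 genes of droplet turnover thus peaked in the late day, the middle of the night and the early day.

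Pdk4 had the largest rhythm of the 32 genes and the opposite phase to Cpt1a. It encodes pyruvate dehydrogenase kinase 4, which blocks the use of pyruvate when fat is burned (chr6:5483351-5496278). It lay at 0.871, 0.973, 1.1 and 1.53 CPM at CT8 and at 21, 16.8, 27.6 and 19.9 CPM at CT24, without overlap. The fitted fold was 35.2 with a peak at 23.7 h (q = 8.33e-07), from 1 to 98 counts a library, so the trough is set by few molecules.

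**Figure D1:**
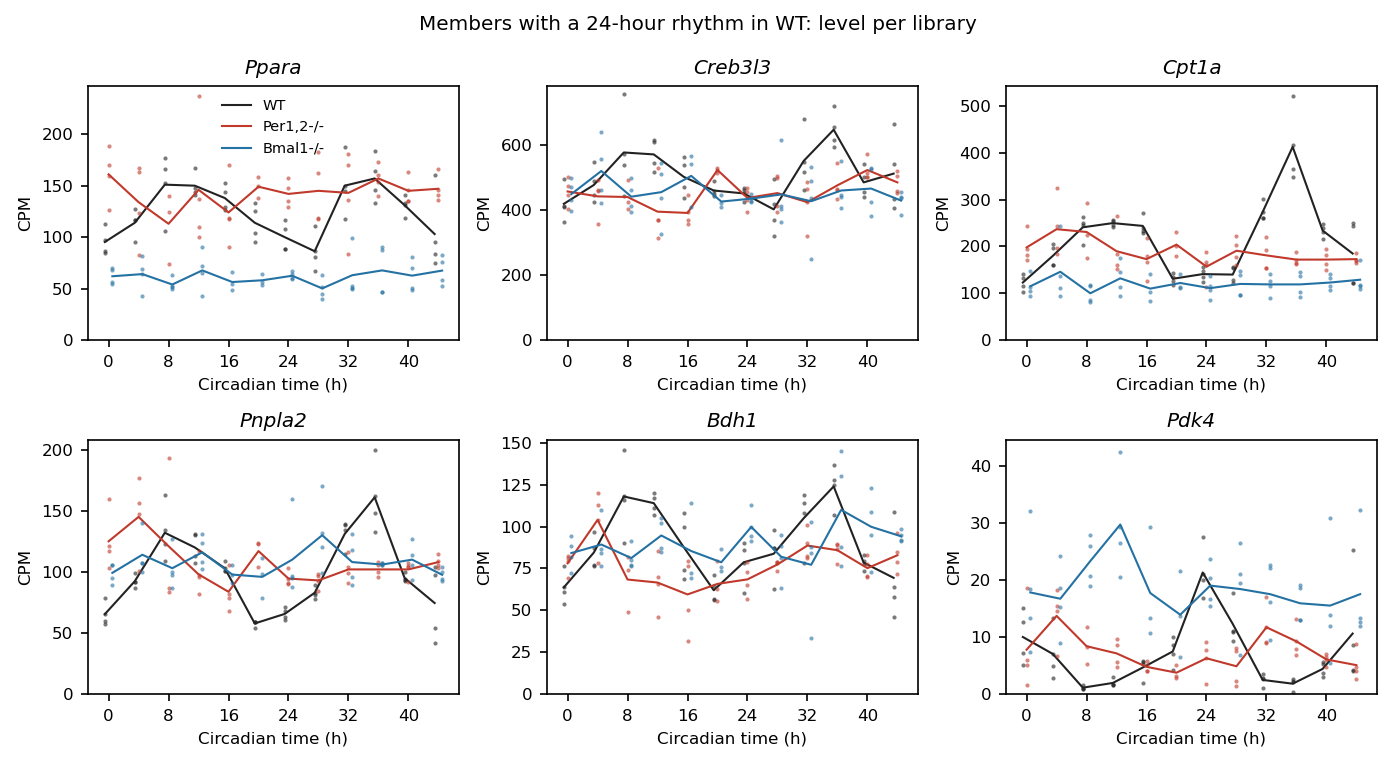
CPM (vertical axis, from 0) against circadian time in hours (horizontal axis) for Ppara, Creb3l3, Cpt1a, Pnpla2, Bdh1 and Pdk4. Points are single libraries and lines join the means of each genotype. WT rises and falls each day, with Pdk4 highest at CT24 and the other 5 genes highest at CT36.

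Of the 9 genes of the oxidation cycle tested, 7 were called in WT, beside 48.6% of all genes: Acadl, Acads, Hadh, Hadhb, Acaa2, Eci1 and Decr1. Decr1, the dienoyl-CoA reductase needed for unsaturated fatty acids, had the largest fold, from 6.99, 6.43, 8.18 and 5.65 CPM at CT24 to 16.8, 14.5, 17.5 and 24 CPM at CT36 (fold 1.7, peak 12.2 h, q = 0.00953). Hadhb, the thiolase subunit of the trifunctional protein, had a fold of 1.32 and a peak at 10.7 h (q = 0.0346). The other 5 had folds of 1.09 (Acaa2) to 1.23 (Hadh). Acadl, the long-chain acyl-CoA dehydrogenase, lay at 289, 292, 284 and 276 CPM at CT0 and at 376, 477, 416 and 411 CPM at CT36 with a fold of 1.17 (q = 0.0719). Acadm and Acadvl, the medium- and very-long-chain dehydrogenases, were not called (q = 1 and 0.582). Harmonic regression called Acadvl (q = 0.139) and not Acadm (q = 0.59).

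Of the electron transfer genes, Etfb was called with a fold of 1.22 and a peak at 18.8 h (q = 4.49e-05), and Etfa and Etfdh were not (q = 0.362 and 0.325). Harmonic regression called Etfa (q = 0.0786) and Etfdh (q = 0.151). Of the ketone body enzymes, Bdh1, which interconverts acetoacetate and 3-hydroxybutyrate, lay at 64.5, 70.9, 56.8 and 56 CPM at CT20 and at 125, 107, 137 and 128 CPM at CT36, with a fold of 1.86 and a peak at 9.98 h (q = 5.98e-07). Acat1, the mitochondrial acetoacetyl-CoA thiolase, lay at 9.38, 11.6, 11.4 and 10.3 CPM at CT28 and at 19.4, 27.8, 20.8 and 18.6 CPM at CT36, and was not called at 24 h (q = 0.708). Among the acyl-CoA thioesterases, Acot12, a cytosolic acetyl-CoA hydrolase, lay at 10.6, 13, 20.3 and 15.9 CPM at CT28 and at 29.6, 34.1, 31.3 and 33.3 CPM at CT8 (fold 1.74, peak 11 h, q = 0.000295). Acot1, the cytosolic long-chain enzyme, lay at 37.5, 31.2, 50 and 50.9 CPM at CT8 and at 147, 92.8, 122 and 134 CPM at CT40 (fold 2.26, peak 18.3 h, q = 0.000473). Acot1 (chr12:84009502-84017670) and its mitochondrial neighbour Acot2 (chr12:83987861-83993877) are near-identical copies, and how their shared reads were divided was not tested. Cyp4a10 (chr4:115518287-115533649) and Cyp4a14 (chr4:115486200-115496158) are neighbours of the same gene family, and reads shared with related genes were not tested.

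**Figure D2:**
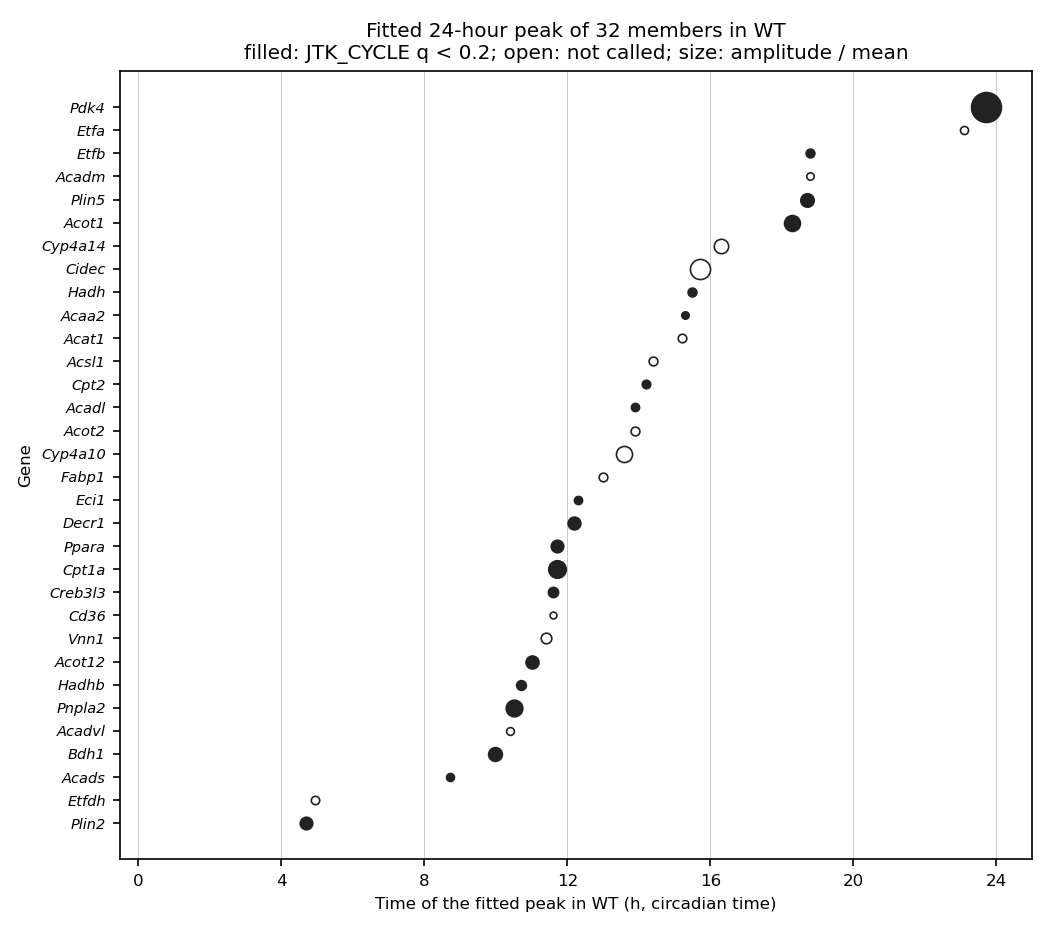
Fitted 24-h peak in WT (horizontal axis, circadian hours) for each of the 32 genes (vertical axis), with called genes marked apart from those not called. Most called genes peak between 8 and 16 h, with Pdk4 at 23.7 h and Plin2 at 4.69 h.

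None of the 32 genes was called at 24 h in Per1,2-/- (0.0864% of all 9258 genes were), and none of the 31 tested in Bmal1-/- was (0.0116% of 8586). Cidec failed the filter of that test in Bmal1-/-. At an unadjusted p under 0.05 in the exact JTK_CYCLE test there were 2 genes in Per1,2-/-, Pdk4 (p = 0.00426, q = 0.464) and Plin5 (p = 0.00873, q = 0.518), and 1 in Bmal1-/-, Etfdh (p = 0.0386, q = 1). Harmonic regression at a q under 0.2 called 0 in each knockout. Of all genes it called 27 of 9258 in Per1,2-/- and 0 of 8586 in Bmal1-/-. In WT it called 26 of the 32 genes, beside 5442 of all 9258. An edgeR cosine test at an adjusted p under 0.2 called 3 in Per1,2-/- (Acot2, Cidec and Pdk4), beside 179 of all 9258. In Bmal1-/- it called 0, beside 3 of all 8586.

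A gene called in WT and missed in a knockout is not thereby shown to differ, so the difference of the 24-h rhythms was tested in edgeR over all libraries. It was called for 12 of 32 genes between Per1,2-/- and WT (25.4% of all genes) and for 13 between Bmal1-/- and WT (19.0%). Both lists held Ppara, Creb3l3, Cpt1a, Bdh1, Acot12, Pdk4, Plin5 and Pnpla2, and both comparisons share the WT libraries. The smallest adjusted p-values for Per1,2-/- were those of Pnpla2 (7.61e-13), Pdk4 (2.55e-10) and Cpt1a (1.67e-09). For Bmal1-/- they were those of Pdk4 (8.2e-11), Pnpla2 (2.75e-09) and Cpt1a (5.48e-09). Without Per1,2-/- CT4 C, CT8 C and CT32 A, 12 genes were called, and Acot2, Plin5 and Cidec lost their calls (adjusted p = 0.269, 0.148 and 0.0711). Hadh lost its call in Per1,2-/- (0.0662) without the libraries with adipose or pancreas markers.

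Those tests compared 24-h terms over all libraries, with a separate mean per genotype. Single values are given here for CT36 alone, picked because WT was highest there. They mix level with rhythm and are no test of either. At CT36, the hour of the WT peak, Cpt1a lay at 163, 165, 188 and 172 CPM in Per1,2-/- and at 92, 146, 102 and 136 CPM in Bmal1-/-. Every one of these libraries was below every WT library of that hour. Pnpla2 at CT36 lay at 100, 106, 95.7 and 108 CPM in Per1,2-/- and at 106, 107, 107 and 106 CPM in Bmal1-/-, again below all 4 WT libraries. Ppara at CT36 lay at 173, 160, 154 and 140 CPM in Per1,2-/-, within the WT range, and at 46.3, 90.4, 46.7 and 87.5 CPM in Bmal1-/-, below it.

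With a period of 16 h, 3 of 32 genes were called in Per1,2-/- (4.73% of all genes) and 0 of 31 in Bmal1-/- (0.0116%), where 0 had an unadjusted p under 0.05 and harmonic regression and the edgeR cosine test called 0. The 3 in Per1,2-/- were Acat1 (fold 1.4, q = 0.0605), Acadm (fold 1.26, q = 0.152) and Cyp4a14 (fold 2.39, q = 0.187). Acat1 lay at 9.58, 25, 14.9 and 12.2 CPM at CT12, Acadm at 175, 276, 183 and 149 CPM, and Cyp4a14 at 12.3, 61.3, 62.7 and 42.2 CPM, the time point with the lowest mean for each of them. The call depends on how equal values of the reference cosine are ordered. The order used was the one that matched p-values the study published for another period, and when equal values were kept as ties 0 genes of the set and 0 of 9258 were called. Harmonic regression called Etfa in place of these 3 (327 of all 9258 genes), and leaving out all libraries of 1 letter left 0 or 1. Without CT4 C, CT8 C and CT32 A, Acadl and Acot1 joined the 3.

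Over the 12 time points, with no shape assumed, 21 of 32 genes changed in WT (edgeR adjusted p under 0.05, against 31.9% of all genes), 18 in Per1,2-/- (19.1%) and 2 in Bmal1-/- (1.32%). The 2 in Bmal1-/- were the omega-oxidation enzymes Cyp4a10 (adjusted p = 0.00357) and Cyp4a14 (0.0403). Fitting the Bmal1-/- libraries alone called 0, leaving out all libraries of 1 letter left 0 to 2, and DESeq2 called 4. Without the 3 Per1,2-/- libraries that stood apart, 14 genes were called in Per1,2-/-, and 6 of the 18 lost their calls: Acadm (adjusted p = 0.158), Acadl (0.11), Pdk4 (0.109), Bdh1 (0.0973), Acat1 (0.0857) and Etfa (0.0541). Without the libraries with adipose or pancreas markers 19 were called in WT, and Etfb (0.0558) and Acat1 (0.0792) lost their calls. The shares in WT and Per1,2-/- are above those of all genes, with no test on the set.

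These counts include genes that JTK_CYCLE did not call at 24 h. Cyp4a10 and Cyp4a14 encode cytochromes P450 of microsomal omega-oxidation and are classical PPARalpha targets. Cyp4a10 had a 24-h fold of 2.3 in WT and was not called by JTK_CYCLE (q = 0.249), while harmonic regression (q = 0.121), the edgeR cosine test and JTK_CYCLE with ties kept called it. In WT, Cyp4a10 lay at 143, 212, 248 and 124 CPM at CT20 and at 659, 1622, 973 and 1044 CPM at CT36. At CT44 it lay at 1073, 1356, 166 and 515 CPM, so that libraries of 1 time point spanned most of the range of the genotype. Cyp4a14 lay at 7.51, 26.9, 19.8 and 56.6 CPM at CT4 and at 628, 688, 18.6 and 140 CPM at CT44, where the libraries overlapped those of CT4. In Bmal1-/-, Cyp4a10 lay at 17.6, 25.8, 9.05 and 53.6 CPM at CT8 and at 350, 129, 109 and 581 CPM at CT40. Cyp4a14 there lay at 8.93, 554, 21.3 and 93.3 CPM within CT4 alone.

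The spread between libraries of 1 time point was wide for these genes. Its SD, in log2(CPM + 1), was 1.16 in WT, 1.07 in Per1,2-/- and 1.78 in Bmal1-/- for Cyp4a14, where the median of all genes was 0.30, 0.29 and 0.30. For Cyp4a10 it was 0.69, 0.91 and 1.25, and for Cidec 0.90, 1.12 and 0.74. For the thioesterase Acot12 it was 0.25, 0.19 and 0.34.

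**Figure D3:**
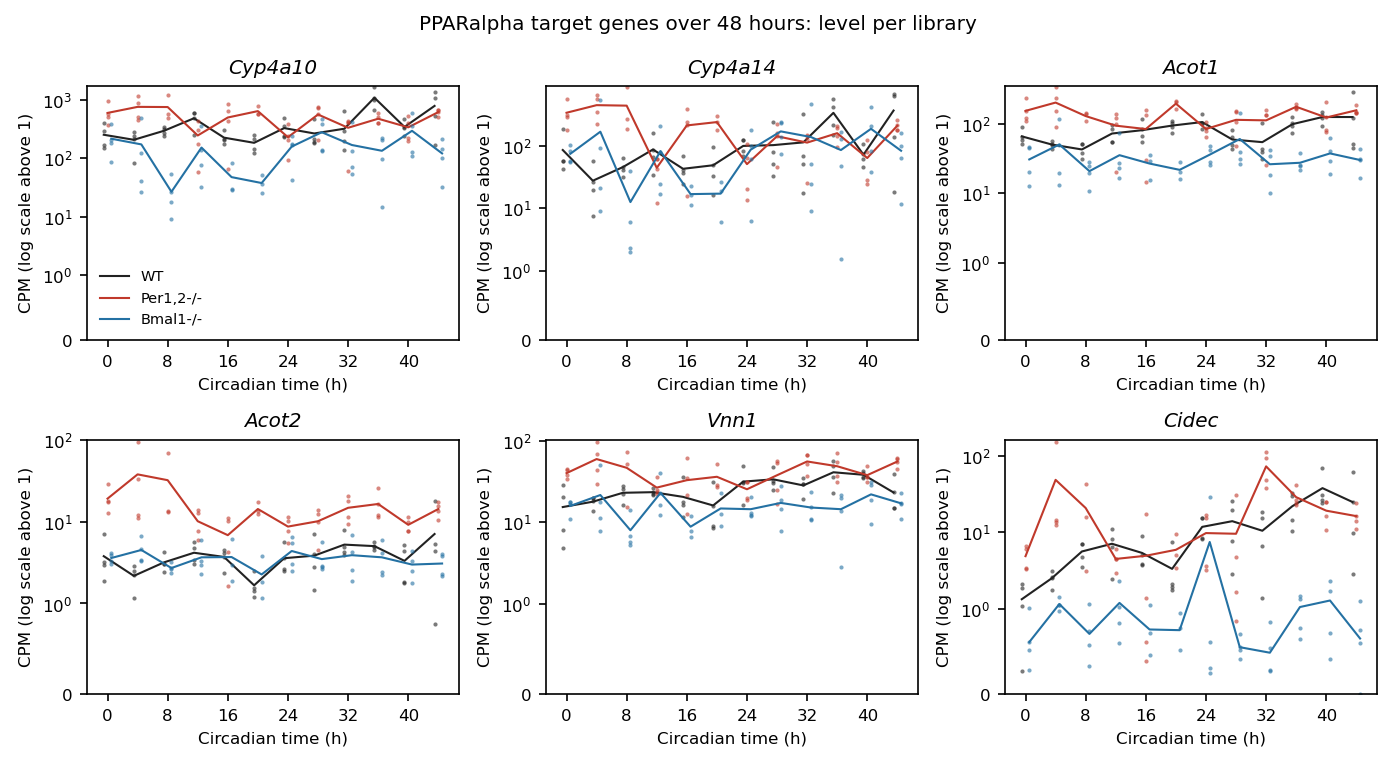
CPM (vertical axis, logarithmic above 1 and linear below) against circadian time in hours (horizontal axis) for Cyp4a10, Cyp4a14, Acot1, Acot2, Vnn1 and Cidec. Points are single libraries and lines join the means of each genotype. Libraries of a time point spread widely for Cyp4a14, from 8.93 to 554 CPM at CT4 of Bmal1-/-, and Cidec in Bmal1-/- stays near 1 CPM except in 1 library at CT24.

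In WT the second day ran higher than the first for 6 genes and lower for 0 (edgeR, mean of CT24 to CT44 minus mean of CT0 to CT20, against 0.776% of all genes higher and 0.978% lower). No gene of the set was lower at an unadjusted p under 0.05, and DESeq2 called 7 genes in either direction. The 6 were Cidec, Cyp4a14, Vnn1, Acadm, Acadl and Hadh. The median over the set was 0.17 on the log2 scale, beside 0.00 over all genes.

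Cidec, which encodes a protein that fuses lipid droplets into larger ones (chr6:113424634-113435760), lay at 1.86, 2.15, 1.08 and 0.27 CPM at CT0 and at 70.1, 30.3, 24 and 26.6 CPM at CT40. It rose by 2.3 ± 0.34 (log2 ± SE, edgeR adjusted p = 2.24e-06). Its increase differed between libraries, since at CT44 they lay at 62.2, 24.9, 9.88 and 2.84 CPM. Cyp4a14 rose by 1.5 ± 0.36 (adjusted p = 0.0086). Vnn1, pantetheinase, a PPARalpha target that yields cysteamine, lay at 28.2, 20.3, 7.95 and 4.86 CPM at CT0 and at 36.2, 23, 48.7 and 55.6 CPM at CT36, and rose by 0.75 ± 0.18 (adjusted p = 0.0086). Acadm lay at 261, 180, 215 and 179 CPM at CT12 and at 348, 429, 226 and 227 CPM at CT44, which overlap, and rose by 0.33 ± 0.06 (adjusted p = 0.000718). Acadl rose by 0.23 ± 0.05 (adjusted p = 0.00584) and Hadh by 0.18 ± 0.05 (adjusted p = 0.0444). Leaving out all libraries of 1 letter left 3 to 5 of these calls in number.

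In Per1,2-/- the second day was higher for 8 genes and lower for 7, against 11.6% and 11.1% of all genes. The days lie 24 h apart, which is not a whole number of 16-h cycles. A 16-h rhythm thus does not cancel between the days, as a 24-h rhythm does. In this genotype the comparison of the days alone cannot tell a change between the days from a 16-h rhythm. No fit with both was run. Higher were Cidec, Cd36, Fabp1, Acsl1, Acads, Eci1, Acaa2 and Etfa. Lower were Cyp4a14, Acot2, Plin5, Cpt1a, Acot12, Acadm and Pnpla2. All 7 lower calls and that of Eci1 were lost without CT4 C, CT8 C and CT32 A, when 8 genes were called in all. Without these libraries Cyp4a14 moved from -1.08 ± 0.35 to -0.87, Acot2 from -0.53 ± 0.17 to -0.10 and Cpt1a from -0.23 ± 0.08 to -0.14. Acot12 (-0.20) and Pnpla2 (-0.16) also lost their calls without the libraries with adipose or pancreas markers.

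The higher genes held without those libraries, apart from Eci1. Cd36, a fatty acid transporter of the cell membrane, lay at 1.68, 1.65, 1.84 and 2.69 CPM at CT0 and at 7.97, 6.86, 5.71 and 5.88 CPM at CT32. It rose by 0.90 ± 0.20 (edgeR adjusted p = 0.00027) and by 0.95 without them, from 3 to 33 counts a library. Cidec lay at 2.99, 4.54, 6.04 and 4.43 CPM at CT12 and at 93.1, 111, 37.8 and 48.5 CPM at CT32, and rose by 1.04 ± 0.29 (adjusted p = 0.00471), or 1.58 without them. At CT4 of the first day its libraries lay at 12.4, 14.6, 153 and 13.8 CPM, the high one being CT4 C. Fabp1 lay at 8465, 7483, 7008 and 6693 CPM at CT0 and at 10807, 14321, 11310 and 11041 CPM at CT36, and rose by 0.50 ± 0.11 (adjusted p = 0.000324), or 0.45 without them.

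In Bmal1-/- no gene of the set was called between the days, against 0.0101% of all genes. At an unadjusted edgeR p under 0.05 there were 5 genes, and DESeq2 called 2. The largest values were 1.58 ± 0.38 for Cyp4a14 (adjusted p = 0.183) and 1.17 ± 0.27 for Cyp4a10 (adjusted p = 0.181).

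The change between the days was then compared between genotypes, in edgeR. Between Per1,2-/- and WT it differed for 12 genes, 1 with a larger change in Per1,2-/- (8.89% of all genes) and 11 with a smaller or opposite one (7.47%). A 16-h rhythm in Per1,2-/- does not cancel here either, and this comparison alone cannot tell it from a change between the days. Acat1, Acadm and Cyp4a14, the 3 genes called at 16 h, were among the 11. The median over the set was -0.15 on the log2 scale, beside -0.03 over all genes. Cyp4a14 differed by -2.58 ± 0.50 (adjusted p = 6.15e-05), the sum of a rise in WT and a lower second day in Per1,2-/-. In Per1,2-/- it lay at 562, 662, 351 and 226 CPM at CT4, at 64, 106, 13.8 and 20.4 CPM at CT24 and at 123, 28, 24.9 and 80 CPM at CT40. Cyp4a10 differed by -1.23 ± 0.36 (adjusted p = 0.0109), Acadm by -0.53 ± 0.09 (8.28e-06) and Acadl by -0.36 ± 0.07 (0.000185). Fabp1, the exception, differed by 0.56 ± 0.15 (0.00635).

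Without CT4 C, CT8 C and CT32 A, 8 genes were called, and Hadhb (-0.26), Acat1 (-0.38), Plin5 (-0.29), Cidec (-0.73) and Pnpla2 (-0.16) lost their calls. Pnpla2 (-0.24) also lost its call without the libraries with adipose or pancreas markers. Between Bmal1-/- and WT 0 genes differed, against 0.242% of all genes, with 8 at an unadjusted edgeR p under 0.05 and 0 by DESeq2. The largest value was -1.94 ± 0.82 for Cidec (adjusted p = 0.393).

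**Figure D4:**
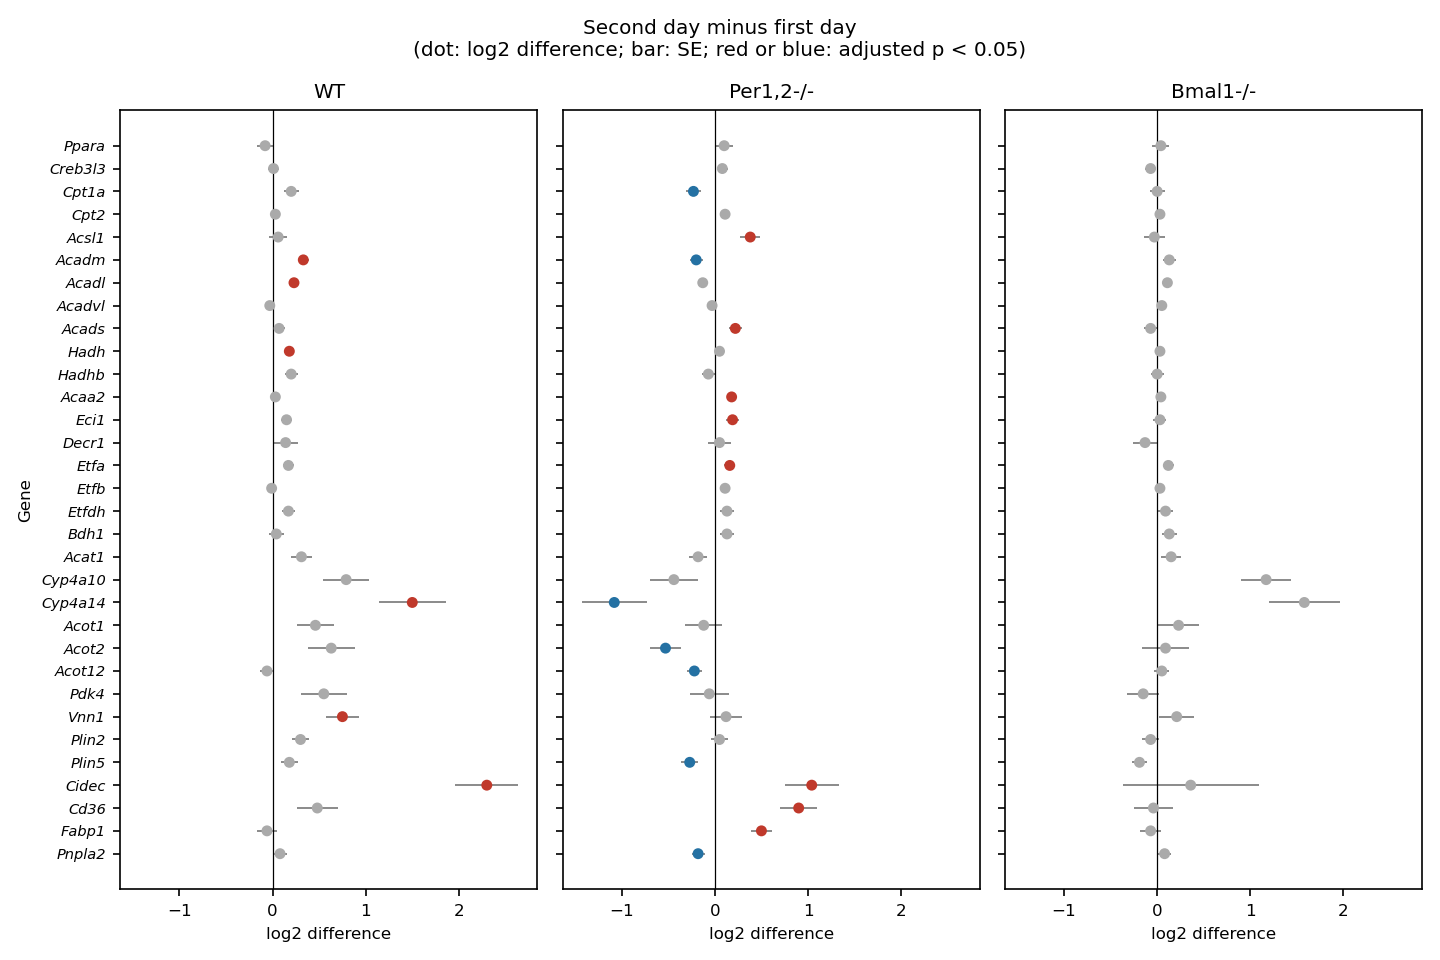
Second minus first day (horizontal axis, log2 difference) for each of the 32 genes (vertical axis) in the 3 genotypes. Dots are edgeR estimates, bars are SE, red and blue mark higher and lower at an adjusted p under 0.05 and grey the rest. WT holds 6 red dots and no blue one, Per1,2-/- 8 red and 7 blue, and Bmal1-/- only grey ones.

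Averaged over the 12 time points, 15 of 32 genes were higher in Per1,2-/- than in WT (edgeR adjusted p under 0.05, 34.8% of all genes) and 10 were lower (32.3%). In Bmal1-/- 7 were higher than in WT (36.1%) and 16 lower (40.2%). Between the knockouts, 15 were higher in Per1,2-/- than in Bmal1-/- (40.0%) and 9 lower (35.0%). Most genes of the genome that passed the filter differed in each comparison, and the counts of the set were not tested against these shares. The sizes of single genes carry the description. They average the log2 level of each time point, so that low time points weigh more than in a mean of CPM. The median over the set was 0.06 for Per1,2-/- against WT and -0.14 for Bmal1-/- against WT, beside 0.02 and -0.03 over all genes. The 3 comparisons share libraries.

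The levels of the regulator Ppara set the genotypes in an order. It had 66.9, 125 and 188 CPM (lowest, median and highest library) in WT, 74.1, 141 and 237 in Per1,2-/- and 40.3, 58.8 and 99.2 in Bmal1-/-. It was 0.22 ± 0.06 higher in Per1,2-/- than in WT (log2 ± SE, edgeR adjusted p = 0.00148) and fell by 0.99 ± 0.06 in Bmal1-/- (adjusted p = 1.95e-28). Between the knockouts it differed by 1.21 ± 0.06. Creb3l3 was lower than in WT by -0.15 ± 0.04 in Per1,2-/- and -0.14 ± 0.04 in Bmal1-/-.

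The mitochondrial thioesterase Acot2 had the largest difference in Per1,2-/-. Acot2 had 0.774, 3.47 and 18 CPM in WT (lowest, median, highest), 1.64, 12.3 and 96.3 in Per1,2-/- and 1.17, 3.12 and 6.91 in Bmal1-/-. It was 1.94 ± 0.15 higher in Per1,2-/- than in WT (adjusted p = 4.39e-23, 3.85-fold). At CT4 of Per1,2-/- its libraries lay at 12.2, 33.4, 96.3 and 11.1 CPM, the highest again being CT4 C. Acot1 had medians of 72.4 CPM in WT, 136 in Per1,2-/- and 27.9 in Bmal1-/-, and was 0.75 ± 0.14 higher in Per1,2-/- (adjusted p = 1.08e-06). At CT4 it lay at 232, 330, 88 and 150 CPM there. Both copies of the thioesterase were thus higher in Per1,2-/-. Cyp4a14 was higher by 0.86 ± 0.25 (0.00156), Cidec by 0.76 ± 0.23 (0.00232), Vnn1 by 0.70 ± 0.12 (2.34e-07) and Acat1 by 0.61 ± 0.08 (1.29e-11). Without CT4 C, CT8 C and CT32 A, Cidec lost its call (0.46), and 25 genes were called.

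The 3 electron transfer genes were called lower in Per1,2-/-, beside 32.3% of all genes: Etfb by -0.39 ± 0.03, Etfdh by -0.30 ± 0.05 and Etfa by -0.10 ± 0.04. Etfa lost its call (-0.09) without the libraries with adipose or pancreas markers, as did Acadm (-0.09), and in Bmal1-/- against WT Etfdh did (-0.09). Etfb had medians of 734 CPM in WT, 549 in Per1,2-/- and 641 in Bmal1-/-. Of the 9 oxidation-cycle genes tested, 2 were higher (Hadh and Decr1) and 4 lower, Eci1, an enoyl-CoA isomerase, by -0.45 ± 0.05 and Acadvl by -0.24 ± 0.03. Cpt1a was not called (-0.08 ± 0.06, adjusted p = 0.187).

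In Bmal1-/- the droplet gene Cidec had the largest difference. It had 0.27, 7.31 and 70.1 CPM in WT (lowest, median, highest), 0.383, 13.1 and 153 in Per1,2-/- and 0, 0.719 and 28.8 in Bmal1-/-. The 28.8 CPM came from Bmal1-/- CT24 A, the library with adipocyte transcripts, beside 0.301, 0.615 and 0.253 CPM in the other libraries of that time point. Without it no Bmal1-/- library had more than 10 counts, and 1 had 0. Cidec fell by 3.04 ± 0.37 against WT (adjusted p = 2.36e-12), and without the libraries with adipose or pancreas markers the difference was -3.37 on the log2 scale.

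Pdk4 had the largest positive difference in Bmal1-/-. It had 0.318, 5.04 and 27.6 CPM in WT (lowest, median, highest), 1.43, 6.59 and 18.5 in Per1,2-/- and 5.43, 18.6 and 42.4 in Bmal1-/-. It was 1.85 ± 0.14 higher in Bmal1-/- than in WT (3.6-fold, adjusted p = 5.63e-23) and 0.45 ± 0.16 higher in Per1,2-/- (adjusted p = 0.00918). These are averages of log2 levels, in which the low WT trough weighs much. In mean CPM over the libraries Pdk4 had 7.09 in WT, 7.45 in Per1,2-/- and 18.7 in Bmal1-/-, so Per1,2-/- lay close to WT on that scale. At CT8, the WT trough, Bmal1-/- lay at 19, 20.6, 27.8 and 26 CPM, above all 4 WT libraries. At CT24, the WT peak, Bmal1-/- lay at 20.3, 16.6, 23.7 and 15.4 CPM, overlapping WT, and Per1,2-/- at 9.11, 7.79, 1.82 and 6.37 CPM, below it. The highest mean in Bmal1-/- was at CT12, with 26.5, 20.5, 42.4 and 29.2 CPM.

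The other large differences in Bmal1-/- were falls. Cyp4a10 had medians of 276 CPM in WT, 494 in Per1,2-/- and 116 in Bmal1-/-, and fell by 1.49 ± 0.19 (adjusted p = 6.08e-12). Acot1 fell by 1.26 ± 0.15 (3.19e-13). Cpt1a had medians of 222, 181 and 115 CPM in WT, Per1,2-/- and Bmal1-/-, and fell by 0.74 ± 0.06 in Bmal1-/- (1.27e-22). Vnn1 fell by 0.68 ± 0.13 and Fabp1 by 0.57 ± 0.08. Of the 9 oxidation-cycle genes 5 were lower and 1, Acads, was higher by 0.23 ± 0.05. Acadl fell by 0.51 ± 0.04 and Eci1 by 0.53 ± 0.05, and Acot12 (0.42 ± 0.06) and Acat1 (0.35 ± 0.08) were higher.

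**Figure D5:**
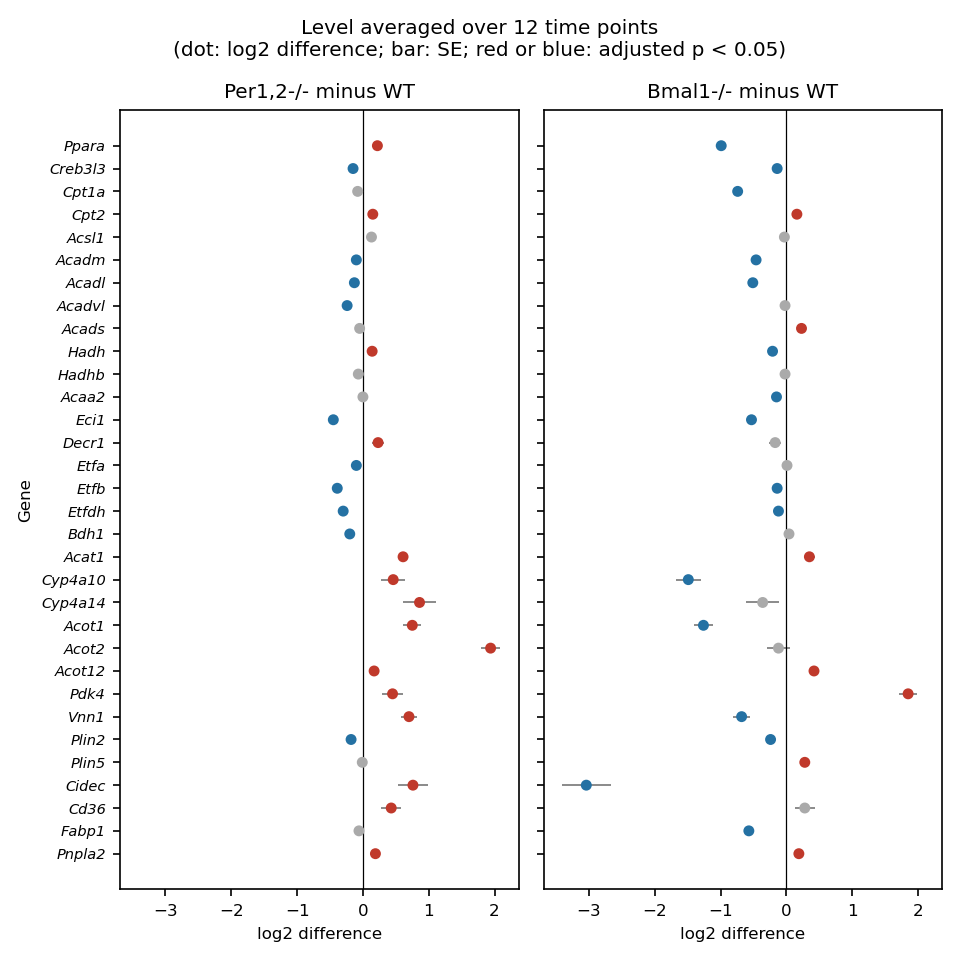
Level against WT in Per1,2-/- and in Bmal1-/- (horizontal axis, log2 difference over the 12 time points), for each of the 32 genes (vertical axis). Dots are edgeR estimates, bars are SE, red and blue mark higher and lower at an adjusted p under 0.05 and grey the rest. Acot2 stands highest in Per1,2-/- against WT (1.94), and in Bmal1-/- Pdk4 (1.85) and Cidec (-3.04) lie at the ends.

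Levels by time of day, with both days averaged, showed when the genotypes differed. In Per1,2-/-, edgeR called 10 genes at CT0 (34.3% of all genes), 18 at CT4 (36.5%), 17 at CT8 (37.9%), 14 at CT12 (43.2%), 7 at CT16 (31.6%) and 9 at CT20 (33%). At CT4, 13 of the 18 were higher than WT, and at CT12, 12 of the 14 were lower. Shares of all genes in each direction were not counted by time of day, so these directions have only the medians beside them. The median over the set moved from 0.26 at CT4 to -0.19 at CT12, beside 0.02 and 0.04 over all genes. Cpt1a was 0.43 ± 0.14 higher at CT0 and -0.83 ± 0.14 lower at CT12, around a daily mean that was not called. Pnpla2 was 0.73 ± 0.12 higher at CT0 and -0.47 ± 0.12 lower at CT12. Pdk4 was -1.0 ± 0.32 lower at CT0 and 2.53 ± 0.44 higher at CT8. Acot2 and Eci1 were called at all 6 times of day, Acot2 higher by 1.09 ± 0.37 at CT16 to 2.77 ± 0.37 at CT4 and Eci1 lower by -0.28 ± 0.11 at CT20 to -0.59 ± 0.11 at CT12. Without the libraries with adipose or pancreas markers Eci1 lost its call at CT20, and Etfdh and Cyp4a10 theirs at CT12. Without CT4 C, CT8 C and CT32 A, 8 of the 75 calls were lost: Cpt1a, Acadvl and Cidec at CT4, and Acadvl, Etfdh, Cyp4a14, Plin5 and Cd36 at CT8.

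In Bmal1-/-, edgeR called 13 genes at CT0 (48%), 16 at CT4 (48.2%), 19 at CT8 (50.2%), 19 at CT12 (52.0%), 13 at CT16 (44.6%) and 15 at CT20 (46.2%). At CT8, 17 of the 19 were lower than WT, and at CT12, 16 of the 19. At CT4, 8 were lower and 8 higher. The median over the set was 0.01 at CT4, -0.34 at CT8 and -0.29 at CT12. Over all genes it was -0.03, -0.03 and -0.02, and shares of all genes in each direction were not counted. Ppara was lower at all 6 times, from -0.65 ± 0.15 at CT0 to -1.37 ± 0.15 at CT8, as were Acadl, Acadm and Eci1. Cpt1a was lower by -1.36 ± 0.14 at CT12. Pdk4 was higher by 3.55 ± 0.39 at CT8 and 3.50 ± 0.39 at CT12, and was not called at CT0 (0.34, adjusted p = 0.353). Without the libraries with adipose or pancreas markers, Acads, Cd36 and Fabp1 lost their calls at CT0 and Pnpla2 its call at CT12.

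The genes most like Ppara over the 36 means of genotype and time point, by Pearson's r of log2(CPM + 1), were Vwce (0.96), Lrp4 (0.95), Ugt1a6b (0.95), Ak4 (0.95) and Gne (0.94). The points share genotype tables, so a difference of level between tables raises r. Creb3l3 had an r of 0.34 over the 36 means and 0.90 over the 12 WT means.

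Other genes of the pathway were counted from lists set by function. Of all genes, 48.6% cycled in WT, 34.8% were higher and 32.3% lower in Per1,2-/- than in WT, and 36.1% were higher and 40.2% lower in Bmal1-/-, and no list was tested against these shares. Of peroxisomal oxidation, 13 of 14 were tested: 9 cycled in WT, 10 were higher and 1 lower in Per1,2-/- than in WT, and 4 were higher and 8 lower in Bmal1-/-. The peroxisomal thioesterase Acot3 was 1.91 ± 0.15 higher in Per1,2-/- and fell by 4.43 ± 0.28 in Bmal1-/-. The list's median was 0.28 in Per1,2-/- and -0.26 in Bmal1-/-, beside 0.02 and -0.03 over all genes.

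Of other genes of mitochondrial oxidation and ketogenesis, 16 of 22 tested cycled in WT (48.6% of all genes), and of 24 tested for level 8 were higher and 7 lower in Per1,2-/- (34.8% and 32.3% of all), and 11 higher and 10 lower in Bmal1-/- (36.1% and 40.2%). Acacb, whose product malonyl-CoA blocks CPT1A, was 0.98 ± 0.11 higher in Per1,2-/-. Of 20 other PPARalpha targets, set beside the same shares, 14 cycled in WT, 4 were higher and 7 lower in Per1,2-/-, and 5 higher and 11 lower in Bmal1-/-. Lpin1, a phosphatidate phosphatase and coactivator, had a WT fold of 7.93 and a peak at 11.8 h (q = 5.24e-10), close to that of Ppara. Fgf21, a fasting hormone of the liver, was 2.09 ± 0.41 higher on the second day in WT (adjusted p = 0.000773), fell by 2.05 ± 0.36 in Per1,2-/- (5.83e-06), and the difference between these changes was -4.14 ± 0.55 (9.85e-09).

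Of the cofactors and partners of PPARalpha, 8 of 15 tested cycled in WT, near the 48.6% of all genes. Of the 15, 4 were higher and 7 lower in Per1,2-/- than in WT (34.8% and 32.3% of all genes), and 3 were higher and 7 lower in Bmal1-/- (36.1% and 40.2%). Ppargc1b, a coactivator of oxidative metabolism, had a WT fold of 3.45 and a peak at 9.02 h (q = 2.24e-07) and fell by 2.38 ± 0.09 in Bmal1-/-. Ppard, the related receptor PPARdelta, fell by 1.75 ± 0.09 in Per1,2-/- and was 1.54 ± 0.07 higher in Bmal1-/-. Of 12 tested genes of lipid droplets and lipolysis, 4 were higher and 3 lower in Per1,2-/-, and 2 higher and 7 lower in Bmal1-/-. Plin4, a droplet coat protein, was 0.95 ± 0.14 higher in Per1,2-/- and fell by 1.96 ± 0.20 in Bmal1-/-.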

How the data were processed

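Bulk MARS-seq of liver RNA gave 140 libraries in 36 groups of genotype and time point, grouped by their labels. Per the labels and the study's methods, the authors used cutadapt for trimming, STAR for mapping to mm10 and HTSeq for molecule counts over RefSeq genes. They deposited whole-number counts for all 3 genotypes, and normalized counts, a signal scaled by DESeq2, for WT and Per1,2-/-. The deposited normalized signal equalled the counts divided by 1 size factor per library, and Bmal1-/- counts were scaled here by the same formula. Libraries held 1678097 to 4364594 counts in WT, 1442278 to 5643470 in Per1,2-/- and 1924755 to 5325256 in Bmal1-/-, and genes with few counts were measured less precisely. No pair of libraries of a group was a duplicate (lowest chi-square per degree of freedom 3.08).

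JTK_CYCLE was coded here (exact null distribution, periods tested singly) and run on normalized counts of genes with at least 1 count in every WT and Per1,2-/- library (9258 genes) or every WT and Bmal1-/- library (8586). Called rhythms had a Benjamini-Hochberg q under 0.2 over all genes. Equal values of its reference cosine were ordered as matched p-values the study published for another period, and keeping them as ties was added as an alternative. Harmonic regression gave folds and peaks. Counts were tested with edgeR 4.0.16 in R 4.3.3 (quasi-likelihood F-test, TMM, filterByExpr, 36 means, 9920 genes, adjusted p under 0.05), with DESeq2 1.42.0 as an alternative, and SE is the log2 difference over the root of F. Rhythm differences used 24- and 16-h terms per genotype. Tests of level, of day and of the 24-h rhythm were also run on simulated data. Python 3.11.15, NumPy 2.4.6, pandas 2.3.3, SciPy 1.17.1 and Matplotlib 3.10.9 were used.

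The 33 genes, the pathway and marker lists and the tests were chosen with earlier results of these data known. Described in full were the 8 called genes with the largest WT amplitude, the genes called in a knockout, the 5 with the largest called differences of level and of day in each comparison, and Ppara and Creb3l3. The alternatives were other tests, thresholds, scalings and filters, each genotype alone, a replicate block and leaving out each letter. The ties, the 3 libraries with adipose or pancreas markers (WT CT36 B, Bmal1-/- CT24 A and CT4 D) and the 3 Per1,2-/- libraries farthest from their groups (CT4 C, CT8 C and CT32 A) were added after seeing the data. Promoter sequences and coordinates are RefSeq's for GRCm38.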

Additional observations from a re-analysis of the deposited data

Results flagged for a closer look

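In 6 of the 74 groups of 4 libraries whose single values are given, 1 library lay apart from the other 3 by Dixon's criterion, which chance meets in about 1 of 20 groups. Cidec held 3 of them, with 70.1 CPM in WT CT40 A, 153 CPM in Per1,2-/- CT4 C and 28.8 CPM in Bmal1-/- CT24 A. The second is a library far from its group over all genes, and the third held adipocyte transcripts. The others were Cyp4a14 in Bmal1-/- CT4 B (554 CPM), Pnpla2 in WT CT20 D (53.7 CPM, beside 58.8 to 59.3 in the other libraries) and Fabp1 in Per1,2-/- CT36 B (14321 CPM).

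The change from the first to the second day differed between Per1,2-/- and WT for 12 genes (edgeR adjusted p under 0.05). A 16-h rhythm in Per1,2-/- does not cancel in this comparison, which alone cannot tell the 16-h rhythm from a change between the days. The log2 differences were -2.58 for Cyp4a14, -1.26 for Cidec, -1.23 for Cyp4a10, -1.16 for Acot2, -0.53 for Acadm, -0.49 for Acat1, -0.46 for Plin5, -0.43 for Cpt1a, -0.36 for Acadl, -0.28 for Hadhb and -0.26 for Pnpla2, and 0.56 for Fabp1. Those of Hadhb, Acat1, Plin5, Cidec and Pnpla2 were not called without Per1,2-/- CT4 C, CT8 C and CT32 A.

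The 24-h rhythm differed between Per1,2-/- and WT for 12 genes. Beside Pnpla2 (edgeR adjusted p = 7.61e-13), Pdk4 (2.55e-10) and Cpt1a (1.67e-09), these were Acot12 (3.09e-05), Bdh1 (0.000153), Ppara (0.000428), Creb3l3 (0.000971), Cidec (0.00422), Hadhb (0.0121), Plin5 (0.018), Acot2 (0.0337) and Hadh (0.0393). Those of Acot2, Plin5 and Cidec were not called without the 3 Per1,2-/- libraries. That of Hadh was not called (0.0662) without the libraries with adipose or pancreas markers.

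Between Bmal1-/- and WT the rhythm differed for 13 genes: Pdk4 (edgeR adjusted p = 8.2e-11), Pnpla2 (2.75e-09), Cpt1a (5.48e-09), Bdh1 (9.53e-05), Acot12 (0.000914), Plin5 (0.00178), Plin2 (0.00407), Decr1 (0.00558), Acot1 (0.00749), Ppara (0.00776), Etfdh (0.0207), Etfb (0.0264) and Creb3l3 (0.0301). The WT folds of these genes ran from 1.19 (Etfdh) to 35.2 (Pdk4).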

How the results depend on the processing

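Another normalization (RLE size factors), DESeq2 and no filter on low counts changed few calls: of 72 calls of level by genotype all 72 were kept under each, and of 25 called differences of the 24-h rhythm all 25. Of the 21 calls between the days DESeq2 kept 21, RLE size factors 20 and no filter 19. DESeq2 called 4 genes with any change in Bmal1-/- in place of 2, and 2 between the days there in place of 0, and fitting Bmal1-/- alone called 0 with any change. At 24 h in Per1,2-/- the edgeR cosine test called 3 genes in place of 0, beside 179 of all 9258 genes. At 16 h in Per1,2-/-, where 3 were called, harmonic regression called 1, a q under 0.05 left 0, ties kept left 0 and leaving out CT4 C, CT8 C and CT32 A gave 5. Without these 3 libraries, 8 genes in place of 15 were called between the days in Per1,2-/-. The cause of these shifts was not tested.

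Leaving out all libraries of 1 letter lowered many counts, with fewer samples in each fit. The 24-h count in WT was then 15 to 17 (19 with all), the 16-h count in Per1,2-/- 0 to 1 (3), any change 0 to 2 in Bmal1-/- (2), 8 to 13 in Per1,2-/- (18) and 15 to 19 in WT (21). Between the days the counts were 7 to 12 in Per1,2-/- (15) and 3 to 5 in WT (6), and the difference of Per1,2-/- from WT had 4 to 11 (12). Rhythm differences had 8 to 11 in Bmal1-/- (13) and 9 to 10 in Per1,2-/- (12). In Per1,2-/- against WT, the counts were 11 to 18 at CT4 (18), 11 to 13 at CT8 (17) and 5 to 11 at CT20 (9). Without letter C, Acot2 between the days in Per1,2-/- turned from -0.53 to 0.02 (-0.73 to 0.02 over the 4 letters), and the difference of Cidec between the days from -1.26 to 0.17 (-2.21 to 0.17). The libraries lettered C include Per1,2-/- CT4 C and CT8 C.

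Letters were checked for pairing between WT and each knockout. Deviations of libraries with the same letter and time point from their group means were correlated. The median r was 0.01 between WT and Per1,2-/- (-0.16 to 0.35, 46 pairs) and 0.00 between WT and Bmal1-/- (-0.27 to 0.18, 46 pairs). An r above 0.1 was found in 10 and 7 of the pairs. A letter effect shared by time points within 1 genotype is not seen by this check. With the replicate block, 20 genes had any change in WT, 19 in Per1,2-/- and 3 in Bmal1-/-, and 10 differed in the change between the days from WT in Per1,2-/-. The edgeR cosine test with the block called 26 at 24 h in WT, beside 5537 of all 9258 genes. In Per1,2-/- it called 2 at 24 h (121 of all 9258) and 1 at 16 h (396 of all 9258). With the block all 72 calls of level were kept.

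Depth limits the genes with few counts. Cd36 had 2 to 38 counts a library, Acot2 medians of 10 in WT and 11 in Bmal1-/-, and Cidec in Bmal1-/- a median of 2.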

Other observations

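The 4 WT libraries of CT44 fell apart by letter for several of these genes, a pattern picked after the values were seen. Cpt1a lay at 250, 244, 122 and 123 CPM in libraries A to D, and Pnpla2 at 104, 97.3, 54 and 42.1 CPM. Cyp4a10 lay at 1073, 1356, 166 and 515 CPM and Cidec at 62.2, 24.9, 9.88 and 2.84 CPM. A and B were above C and D for all 4 genes. WT CT44 C also had the highest macrophage marker sum of its genotype (1460 CPM, median 531), while that library and D shared the low values. CT44 is the last time point and bears on the second-day means of WT, and the part of these libraries in those means was not tested beyond leaving out each letter.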
